A study of Mus musculus with 35 samples.

Results

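The genes described here build or service the axoneme, the microtubule core of the sperm tail. They were taken by symbol from the gene counts of pachytene spermatocytes (Spc), round spermatids (RS) and chromatoid bodies (CB), as every numbered gene whose symbol opens with Dnai, Dnal, Dnaaf, Rsph, Cfap, Ift or Bbs, without the axonemal dynein heavy chains (Dnah). This gave 55 of the 24411 genes in the count tables. All 55 reached 10 counts in at least 3 libraries of Spc and of RS, and 54 did so in CBs, where Rsph4a fell short. The 55 genes lie on 18 chromosomes and comprise 5 dynein chains, 4 dynein arm assembly factors, 7 radial spoke genes, 17 Cfap genes, 3 intraflagellar transport (IFT) A genes, 11 IFT-B genes and 8 Bardet-Biedl syndrome (Bbs) genes.

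The mice had a mixed C57Bl/6J and SV129 background. Smg6-cKO males carried a floxed Smg6 exon that Cre, driven by the Ngn3 promoter from the spermatogonial stage on, removes from germ cells, while their Cre-negative littermates served as controls (CTRL). SMG6 is the endonuclease of nonsense-mediated decay (NMD), the pathway that degrades transcripts with a premature stop codon or certain 3′UTR features, and the series asks how its loss alters germ cell RNA. Poly(A) RNA of Spc and RS from adult testes was sequenced in 3 libraries per genotype, and RNA of CBs, which are cytoplasmic RNA granules of spermatids that were isolated with an antibody to DDX4 from pooled mice, in 4 CTRL and 3 cKO libraries. Since Cre acts in germ cells, the somatic cells of the testis keep Smg6. Spc and RS were enriched by sedimentation and are not pure. Fewer cells of a type and less RNA per cell cannot be told apart in such samples.

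Libraries of Spc and RS held 38129415 to 49940226 counts and those of CBs 3965541 to 16699210. Whole-gene Smg6 did not differ between the genotypes in edgeR's quasi-likelihood test (log2 fold change 0.22 in Spc with an adjusted p of 0.34, 0.05 in RS with 0.80 and -0.06 in CBs with 0.80), but only 1 exon is removed, so these counts do not check the knockout. Markers of other cells and stages moved with the genotype. In RS, 10 of 10 late spermatid markers were lower in cKO, their summed share of all counts being 2.25 to 2.79% in CTRL and 0.218 to 0.233% in cKO libraries. The 10 spermatid markers were also lower (0.328 to 0.342% against 0.152 to 0.172%), and of 12 spermatocyte markers 4 were higher and 4 lower (8 and 1 under scaling by total counts), their summed share being 0.127 to 0.131% in CTRL and 0.172 to 0.187% in cKO. By contrast, 9 of 9 Leydig cell markers tested (0.000992 to 0.00107% against 0.00825 to 0.0441%), 9 of 10 Sertoli cell markers (0.00459 to 0.00621% against 0.0133 to 0.0333%) and 13 of 14 macrophage markers were higher in cKO RS. The macrophage sum spanned 0.0368 to 0.0435% in CTRL and 0.0399 to 0.0574% in cKO, and none of these markers was at 0 in all libraries of a group of RS. In Spc, 10 of 10 late spermatid markers (0.406 to 0.790% in CTRL against 0.0468 to 0.147% in cKO) and 8 of 11 Sertoli cell markers tested were lower in cKO, while 4 of 10 Leydig and 10 of 14 macrophage markers were higher and 2 of the 14 lower. The summed share of the macrophage markers in Spc was nevertheless 0.0131 to 0.0206% in CTRL and 0.0118 to 0.0125% in cKO, and Aif1, 1 of the 2 lower, had the mean levels of 115 and 41.9 CPM. In Spc 3 of 10 spermatid markers were lower, and of the 12 spermatocyte markers 1 was higher and 2 lower. In CBs, 10 of 10 late spermatid and 10 of 10 spermatid markers (0.0472 to 0.0634% in CTRL against 0.0180 to 0.0250% in cKO) and 2 of 12 spermatocyte markers were also lower and 9 of 9 Leydig markers tested higher in cKO, with Pax8 and Krt7, markers of rete and efferent ducts, at 0 in every library. Of the macrophage markers 6 could be tested in CBs, with 3 higher and 1 lower (summed share of all 14 0.0118 to 0.0140% in CTRL and 0.00702 to 0.0106% in cKO), and of the Sertoli markers 6, with 2 higher (0.00196 to 0.00278% against 0.00224 to 0.00738%). Only 2 of the 5 duct markers could be tested in RS and Spc, and neither was called. The part these cells and stages play in the values below was not tested.

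An axoneme has a ring of outer microtubule doublets around a central pair. Dynein arms on the doublets pull on the neighbouring doublet, radial spokes relay signals from the central apparatus to the arms, and proteins inside the doublet wall stiffen it. Arms are assembled in the cytoplasm with the help of the Dnaaf proteins. IFT-B particles carry cargo towards the tip and IFT-A particles take part in the return, while the BBSome, an octamer of Bbs proteins, links membrane cargo to these trains. Spermatids grow the sperm tail after meiosis, and transcripts of many of these genes already accumulate in spermatocytes. RFX factors bind the X-box in promoters of such genes.

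X-box letters were present in part of the promoters, and the sites of the genes that carry the results are shown here first. In the mouse RefSeq promoters (GRCm38.p6, 300 bases from 250 before to 50 after the start), 47 of the 55 genes have an entry. The half-site GTTGCC, on either strand, occurred for 17 of these 47 genes (36.2%) and for 14.1% of the 27025 genes with an entry. The full X-box, a pair of inverted half-sites with some free positions, occurred for 6 of 47 (12.8%) and for 1.49% of all genes, and 4 genes held both. A match is a description of letters and no evidence of binding. Full matches were in Bbs1, Bbs4, Bbs7, Dnaaf5, Ift22 and Ift57, with 2 neighbouring sites in Ift22. These are printed on the gene's strand, with the match in capitals.
Bbs1, chr19:4906605-4906634, minus strand: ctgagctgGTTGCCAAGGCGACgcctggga
Bbs4, chr9:59353464-59353493, minus strand: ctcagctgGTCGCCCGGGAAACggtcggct
Bbs7, chr3:36613489-36613518, minus strand: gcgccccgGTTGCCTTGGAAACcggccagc
Dnaaf5, chr5:139150209-139150238, plus strand: tagcgccgGTTCCCTTGGAGACaggcaacg
Ift22, chr5:136908079-136908108, plus strand: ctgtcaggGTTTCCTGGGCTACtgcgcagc
Ift22, chr5:136908109-136908138, plus strand: tgttcccgGTCGCCGTGGAAACtgaccagc
Ift57, chr16:49699199-49699228, plus strand: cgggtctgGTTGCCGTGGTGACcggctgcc

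Half-sites are shown for 4 of the genes with the largest changes described below, again on the gene's strand, where GGCAAC is the half-site read on the other strand.
Cfap46, chr7:139683811-139683832, minus strand: cgtctctaGGCAACcgctactg
Cfap74, chr4:155409195-155409216, plus strand: agccttccGTTGCCatggagct
Cfap58, chr19:47937645-47937666, plus strand: gcgtggcgGTTGCCaggcgacc
Bbs5, chr2:69647205-69647220, plus strand: gccggcgcGTTGCCtt
Genes that moved either way carried these letters. In cKO RS, 6 of the 17 genes with a half-site were higher and 4 lower, against 6 higher and 12 lower of the 28 genes with neither motif. Of all genes 40.2% were higher and 32.9% lower. Of the 6 genes with the full pattern, 4 of which are also among the 17, the 3 Bbs genes and Dnaaf5 were higher. The other genes with it, Ift22 and Ift57, were lower in cKO RS. Among the lower genes with either motif, the sign turned for Ift172 and Ift22 under scaling by total counts.

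Levels of different genes are compared as CPM (counts scaled to a common library size) per kilobase of annotated exon. In CTRL Spc they spanned 0.192 to 1088 with a median of 30.8, and in CTRL RS 0.0961 to 502 with a median of 36.9. Rsph1, a radial spoke head protein, had the highest level in Spc, RS and CBs of both genotypes (1088 ± 40.4 in CTRL Spc, SD, n = 3). Dnaaf1, an arm assembly factor, came next in all 3 of the CTRL groups (426, 475 and 95.9 in CTRL Spc, RS and CBs). Rsph4a, the spoke head paralog of motile cilia, was the lowest of the 55 in every group. Its raw counts were 10 to 45 per CTRL library of Spc and RS and 0 to 5 per CB library, so little can be read from its differences. Together the 55 genes took 1.26 to 1.31% of all counts in CTRL Spc, 0.967 to 1.02% in CTRL RS and 0.375 to 0.538% in CTRL CBs, and 1.33 to 1.39%, 1.27 to 1.35% and 0.456 to 0.520% in the corresponding cKO libraries.

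In RS, where the genotypes differed most, 14 of the 55 genes were higher and 21 lower in cKO at the threshold of 0.05 on the adjusted p (quasi-likelihood test of edgeR, with Benjamini-Hochberg adjustment across all genes). Of all 17492 genes tested in RS, 40.2% were higher and 32.9% lower. The median log2 fold change was -0.08 over the 55 genes and 0.16 over all genes, and 38 of the 55 lay below the median of all genes. The changes were mostly small, with a median size of 0.41 on the log2 scale against 0.90 over all genes. Only Cfap46 (up) and Rsph14 (down) passed the size of 1.5 that the study applied, while 15.9% and 11% of all genes passed it upwards and downwards. When libraries were scaled by their total counts alone, the median of all genes in RS moved to 0.72 and the counts became 35 higher and 8 lower. Directions in RS are therefore given relative to the other genes, and 38 of the 55 were below the median of all genes under this scaling as well. The sign turned under it for 6 of the 21 genes lower in RS (Bbs12, Dnaaf1, Dnal4, Ift122, Ift172 and Ift22) and for none of the 14 higher. A further 7 of the 21 no longer passed under it (Cfap36, Cfap52, Cfap53, Dnaaf3, Dnal1, Ift81 and Rsph3a).

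In Spc, 14 genes were higher and 8 lower in cKO, where 14.1% and 14% of all 17321 genes tested were called in these directions. The median was 0.05 over the 55 genes and -0.01 over all genes, and none passed a size of 1.5, where 3.48% and 5.13% of all genes did. Leaving out 1 library reduced these counts to 7 to 12 and 2 to 7, the lowest being without CTRL Spc 3 for genes higher and without cKO Spc 3 for genes lower. Of the 14 genes higher in Spc 10 were among the 14 higher in RS, and of the 8 lower in Spc 7 were among the 21 lower in RS. Of all genes called higher in Spc and tested in RS 85% were higher in RS as well, and of those lower in Spc 72.6% were lower. None of the 55 was called in opposite directions in the 2 cell types, where 1.21% of all genes higher in Spc were lower in RS and 13.6% of those lower in Spc were higher.

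**Figure D1:**
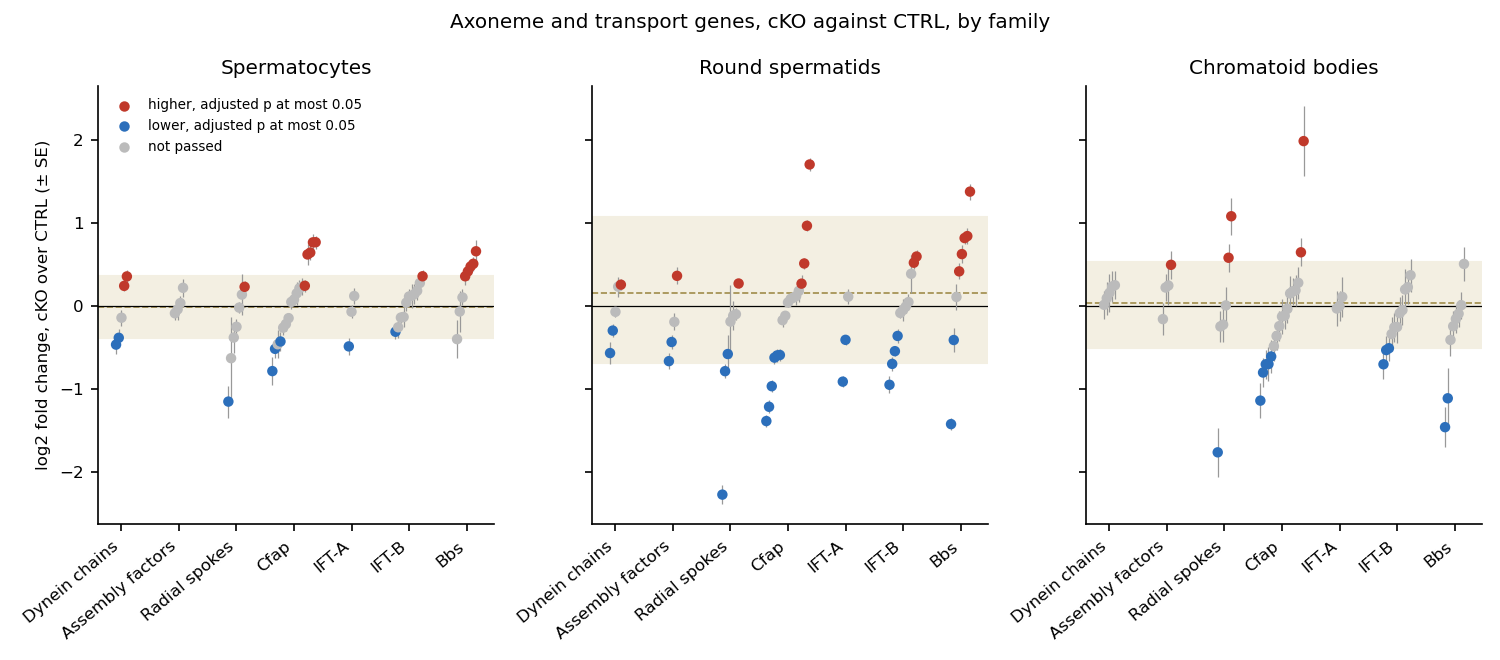
Log2 fold change (cKO over CTRL) of each of the 55 genes in Spc, RS and CBs, grouped by family, with the standard error of the fit as bars. Red points were higher and blue points lower at an adjusted p of at most 0.05, grey points did not pass, and the beige band with the dashed line gives the interquartile range and the median of all genes tested. Rsph14 lies lowest and Cfap46 highest in each of the 3 panels.

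The dynein chains, which form the motors with the heavy chains, changed little. In Spc, Dnaic1 (an outer arm intermediate chain, log2 fold change 0.36 ± 0.07 SE) and Dnali1 (an inner arm light intermediate chain, 0.25 ± 0.07) were higher in cKO. In RS Dnaic1 was the one chain called higher (0.26 ± 0.06, adjusted p = 0.0055), and Dnali1 did not pass (-0.07 ± 0.06). Dnaic2, the partner of Dnaic1 in the outer arm, was lower in Spc (-0.38 ± 0.11) and did not pass in RS (0.24 ± 0.12, adjusted p = 0.10). Dnal1, an outer arm light chain, fell in both cell types. Its levels in RS were 22.5, 22.9 and 23.1 CPM in CTRL and 12.8, 16.4 and 17.2 CPM in cKO, without overlap (log2 fold change -0.56 ± 0.13). Dnal4 was lower in RS (-0.29 ± 0.08), and turned under scaling by total counts. None of the 5 chains was called in CBs.

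Among the assembly factors, none of 4 passed in Spc. In RS, Dnaaf3 (183, 185 and 195 CPM in CTRL, 106, 113 and 138 in cKO, log2 fold change -0.66 ± 0.10) and Dnaaf1 (-0.43 ± 0.08, turned under scaling by total counts) were lower. Dnaaf5 was higher, at 49.1, 52.2 and 55.0 CPM in CTRL and 58.0, 71.4 and 72.3 in cKO (0.37 ± 0.10). Each cKO library of Dnaaf5 lay above each CTRL library. Dnaaf2 was not called in RS (-0.19 ± 0.10) and was higher in CBs (0.50 ± 0.17, adjusted p = 0.035).

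The radial spoke genes held the largest decrease. Rsph14 (chr10:74957477-75032586, minus strand), an armadillo repeat protein of the radial spoke, had 30.8, 30.8 and 31.4 CPM in CTRL RS and 5.77, 6.53 and 7.0 CPM in cKO RS. This was 4.82-fold lower in cKO, with a log2 fold change of -2.27 ± 0.11 and an adjusted p of 1.1e-06 in the edgeR test. In Spc it had 14.8, 15.4 and 19.7 CPM in CTRL and 6.22, 7.51 and 8.77 CPM in cKO (-1.15 ± 0.19). In CBs it had 4.94, 6.06, 6.85 and 7.27 CPM in CTRL and 1.58, 1.85 and 2.08 CPM in cKO (-1.76 ± 0.30). The genotypes did not overlap in any of the 3 preparations, and Rsph14 was the one gene of the 55 that was lower in all 3.

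Rsph6a, the testis-enriched spoke head protein, went the other way. It was higher in cKO Spc (0.24 ± 0.07), in RS, where CTRL libraries had 305, 310 and 313 CPM and cKO libraries 359, 380 and 386 (0.28 ± 0.06), and most in CBs. There it had 59.7, 60.5, 84.5 and 104 CPM in CTRL and 139, 152 and 201 CPM in cKO (1.09 ± 0.22, adjusted p = 0.0025). Rsph1 did not pass in Spc or RS and was higher in cKO CBs (0.59 ± 0.17). Rsph9, another spoke head protein, was lower in RS (-0.78 ± 0.08) and was not called in Spc (-0.25 ± 0.09). Rsph3a and Rsph3b are near-identical copies whose reads may have been split between them. Rsph3a was lower in RS at an adjusted p of 0.047, and Rsph3b was not called in Spc, RS or CBs.

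The Cfap genes, which encode proteins of several structures, were called in both directions. In RS 4 of 17 were higher and 6 lower (40.2% and 32.9% over all genes). In Spc 5 were higher and 3 lower (14.1% and 14%), and in CBs 2 and 5 (16.8% and 19.2%). Under scaling by total counts Cfap36, Cfap52 and Cfap53 no longer passed among the 6 lower in RS. Both Cfap46 and Cfap74, which are assigned to the central apparatus, were higher in all 3 preparations. Cfap46 (chr7:139600951-139683817, minus strand) had 97.3, 107 and 110 CPM in CTRL RS and 327, 336 and 368 CPM in cKO RS, a 3.27-fold difference (log2 fold change 1.71 ± 0.08, adjusted p = 6.6e-07). In Spc it had 249, 254 and 281 CPM in CTRL and 423, 440 and 479 CPM in cKO (0.77 ± 0.08). In CBs the CTRL libraries had 241, 273, 287 and 319 CPM, and the cKO libraries 517, 541 and 2288. The difference of 1.99 ± 0.42 in CBs rests in part on this last library, cKO CB b, and was 0.96 without it (adjusted p = 0.0040).

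Cfap74 had 73.3, 74.1 and 77.5 CPM in CTRL RS and 139, 151 and 151 CPM in cKO RS (0.97 ± 0.07). In CBs it had 183, 186, 193 and 212 CPM in CTRL and 261, 309 and 343 CPM in cKO (0.65 ± 0.17). All cKO libraries lay above all CTRL libraries, in Spc too (0.65 ± 0.09). Cfap221, which is placed in the same projection of the central apparatus, was higher in cKO Spc (0.63 ± 0.12) and RS (0.27 ± 0.10) and lower in CBs (-0.60 ± 0.20). It was the one gene called higher in RS and lower in CBs.

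Cfap126, Cfap45, Cfap52, Cfap53 and Cfap20 are proteins of the doublet lumen. Cfap126 (Flattop) had 262, 269 and 271 CPM in CTRL RS and 96.9, 99.4 and 111 CPM in cKO RS, 2.61-fold lower (-1.38 ± 0.07, adjusted p = 1.2e-06). In CBs it had 33.3, 37.4, 50.8 and 53.6 CPM in CTRL and 17, 21.0 and 21.9 CPM in cKO (-1.14 ± 0.21), and in Spc it did not pass (-0.46 ± 0.17, adjusted p = 0.083). Cfap45 had 411, 412 and 444 CPM in CTRL RS and 199, 222 and 229 CPM in cKO RS (-0.96 ± 0.07). Cfap52 (-0.59 ± 0.08) and Cfap53 (-0.62 ± 0.08) were also lower in RS, so that 4 of these 5 fell, but under scaling by total counts Cfap52 (-0.03) and Cfap53 (-0.06) no longer passed. Cfap20 was higher (0.52 ± 0.07).

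Cfap58, a coiled-coil protein required for sperm tail assembly, had 386, 386 and 403 CPM in CTRL RS and 154, 169 and 185 CPM in cKO RS (-1.21 ± 0.08). It was lower in Spc as well, with 121, 140 and 193 CPM in CTRL and 83.6, 84.3 and 97.0 in cKO (-0.78 ± 0.17). Cfap69, another central apparatus protein, was higher in Spc (275, 327 and 358 CPM in CTRL, 524, 535 and 582 in cKO, 0.77 ± 0.11), not called in RS (0.11 ± 0.06) and lower in CBs (-0.80 ± 0.18). Cfap43, a tether protein of the inner dynein arms whose loss disrupts the sperm tail, was higher in Spc (0.25 ± 0.07) and was not called in RS or CBs. Its partner Cfap44 was not called in any of the 3. Cfap61, a protein at the base of a radial spoke, was lower only in CBs (-0.70 ± 0.20).

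**Figure D2:**
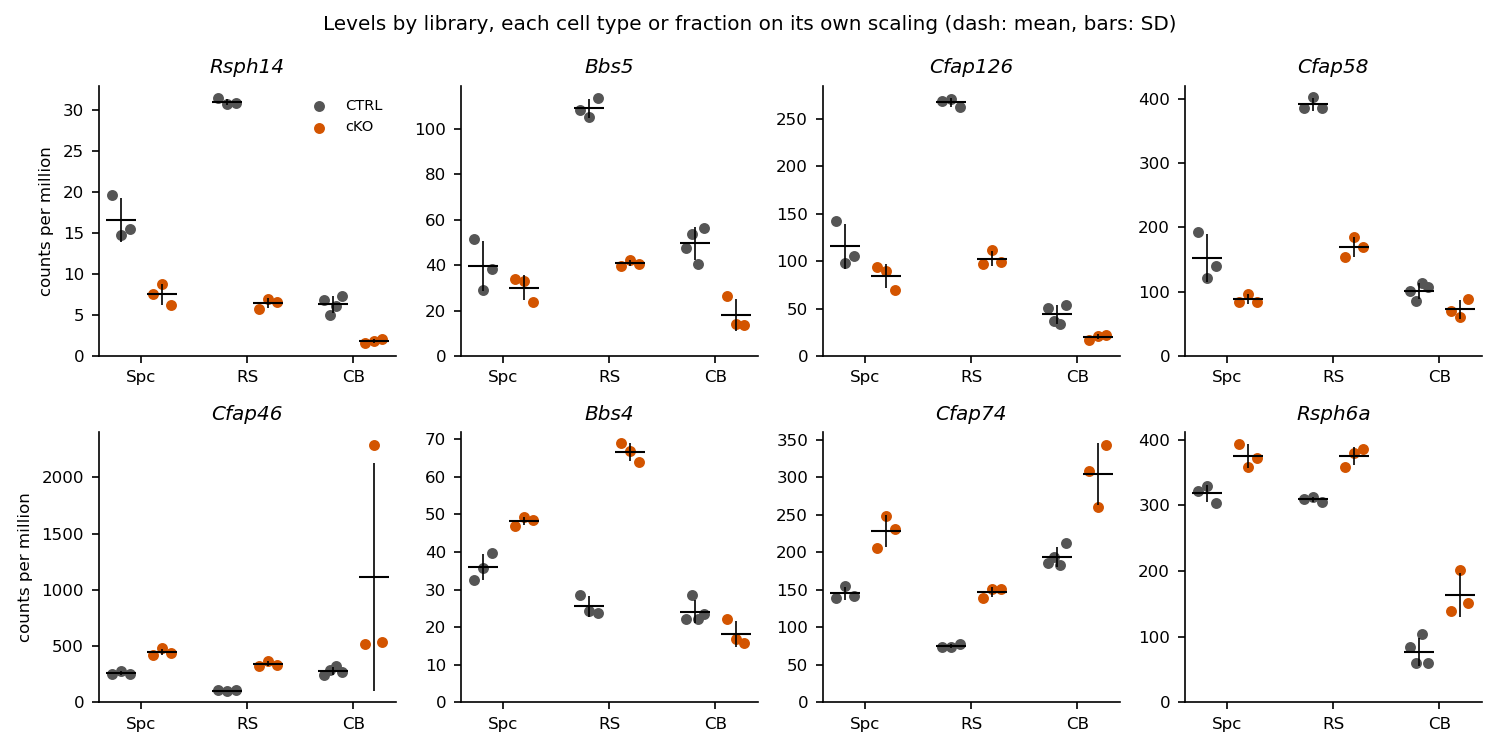
CPM of 8 genes in each library of Spc, RS and CBs, on linear axes from 0, with CTRL in grey and cKO in orange. Dashes are group means and bars are SD (n = 3, or 4 for CTRL CBs). Rsph14, Bbs5, Cfap126 and Cfap58 lie lower in cKO RS and Cfap46, Bbs4, Cfap74 and Rsph6a higher, and 1 cKO CB library of Cfap46 lies at 2288 CPM.

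The IFT genes were mainly not called or lower. In RS, 2 of 11 IFT-B genes were higher and 4 lower, and 2 of 3 IFT-A genes were lower. Of all genes 40.2% were higher and 32.9% lower there. Under scaling by total counts the sign turned for Ift122, Ift172 and Ift22 among those lower. Ift57, an IFT-B subunit, had 101, 101 and 114 CPM in CTRL RS and 49.9, 52.3 and 62.2 CPM in cKO RS (-0.95 ± 0.10). Ift43, a small IFT-A subunit, had 129, 132 and 137 CPM in CTRL and 70.0, 70.2 and 71.9 CPM in cKO (-0.91 ± 0.06). Both were also lower in Spc (-0.31 ± 0.09 and -0.48 ± 0.11). Ift172, the largest IFT-B subunit, was lower in RS (-0.54 ± 0.06), except under scaling by total counts. The tubulin-binding Ift81 was lower too (-0.69 ± 0.09), but under that scaling it was at -0.14 and no longer passed.

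Ift80 was higher in RS, with 50.1, 54.5 and 55.8 CPM in CTRL and 75.0, 83.4 and 84.9 CPM in cKO (0.60 ± 0.08). Ift52 was higher in RS (0.53 ± 0.08) and in Spc (0.36 ± 0.08), and was the 1 of 11 IFT-B genes called higher in Spc, where Ift80 narrowly missed the threshold (0.28 ± 0.09, adjusted p = 0.052). Ift74 and Ift88, core IFT-B subunits, were not called in RS (0.00 ± 0.07 and -0.08 ± 0.06) and were lower in CBs (-0.70 ± 0.17 and -0.53 ± 0.16). Ift20, the subunit that also resides at the Golgi, the GTPase Ift27 and the IFT-A subunit Ift140 were called in none of the 3 preparations.

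In Spc and RS, but not in CBs, the Bbs genes were the family in which most members rose. In Spc 5 of 8 were higher and none lower (14.1% and 14% over all genes). In RS 5 were higher and 2 lower (40.2% and 32.9%), with a median of 0.53. In CBs none was higher and 2 were lower (16.8% and 19.2%), with a median of -0.19. Bbs4 (chr9:59321990-59353508, minus strand), a BBSome subunit, had 23.7, 24.3 and 28.6 CPM in CTRL RS and 64.0, 66.8 and 69.0 CPM in cKO RS, 2.61-fold higher (1.38 ± 0.10, adjusted p = 6.4e-06). Bbs1 had 22.8, 23.0 and 25.7 CPM in CTRL RS and 38.9, 44.5 and 45.3 CPM in cKO RS (0.85 ± 0.10) and did not pass in Spc (0.11 ± 0.10). Bbs9 (0.82 ± 0.07), Bbs7 (0.63 ± 0.11) and Bbs2 (0.42 ± 0.10) were higher in RS and, at 0.51 ± 0.08, 0.66 ± 0.14 and 0.48 ± 0.09, in Spc. The 5 genes higher in RS are all subunits of the BBSome, while in Spc Bbs10, a chaperonin-like protein, was among the 5 in place of Bbs1 (0.36 ± 0.11, adjusted p = 0.043).

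Bbs5, also a BBSome subunit, went against them. Bbs5 (chr2:69647171-69667571, plus strand) had 105, 108 and 114 CPM in CTRL RS and 39.5, 40.6 and 42.2 CPM in cKO RS, 2.67-fold lower (-1.42 ± 0.07, adjusted p = 1.1e-06). In CBs it had 40.3, 47.6, 53.8 and 56.4 CPM in CTRL and 13.5, 14.2 and 26.3 CPM in cKO (-1.46 ± 0.24). In Spc the libraries overlapped (-0.39 ± 0.23, adjusted p = 0.23). Bbs12, a chaperonin-like protein that helps the BBSome form, was low in all libraries and was lower in cKO RS (-0.41 ± 0.14, turned under scaling by total counts) and CBs (-1.11 ± 0.36). Its row shares a strand and position with the annotated gene Gm43439, so reads of the pair may be mixed.

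In CBs, 5 of 54 genes were higher and 11 lower in cKO, while 16.8% and 19.2% of all 14051 genes tested were. The median was -0.06 against 0.04 over all genes. Cfap46 upwards and Rsph14 downwards passed the size of 1.5, as did 5.42% and 5.96% of all genes. Genes higher were Cfap46, Rsph6a, Cfap74, Rsph1 and Dnaaf2. The lowest were Rsph14, Bbs5, Cfap126, Bbs12, Cfap69 and Ift74. Without cKO CB b the number lower was 7, and without CTRL CB b the number higher was 3. Under scaling by total counts 2 were higher (Cfap46 and Rsph6a), while Cfap74 (0.52), Rsph1 (0.45) and Dnaaf2 (0.38) no longer passed. Ift81 (-0.63) and Ift88 (-0.66) were lost from those lower. Of the 14 genes higher in RS and the 5 higher in CBs 3 were shared (Cfap46, Cfap74 and Rsph6a), and of the 21 and 11 lower 5 were shared (Rsph14, Bbs5, Cfap126, Bbs12 and Ift81). Of all genes higher in RS and tested in CBs 34.9% were higher in CBs, and of those lower 46.4% were lower. Bbs4, higher in RS, had in CBs a log2 fold change of -0.40 ± 0.19 (adjusted p = 0.12).

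The change from Spc to RS was examined next, with libraries of both cell types scaled together. In CTRL, 23 of the 55 genes were higher in RS and 20 lower, against 35.6% and 40.4% of all 17046 genes tested. The median was 0.12 over the 55 genes and -0.10 over all genes. Scaling by total counts alone moved the median of all genes to -0.52 and gave 12 higher and 34 lower, with the sign turned for 7 of the 23 genes higher (Cfap36, Cfap43, Dnaaf1, Dnaic2, Dnal4, Dnali1 and Ift172) and for none of the 20 lower. A further 4 of the 23 no longer passed (Cfap53, Ift43, Ift74 and Rsph9). In each direction 2 of the 55 passed the size of 1.5 (Bbs5 and Cfap58 up, Ift80 and Ift20 down), where 16.6% and 17.4% of all genes did. Bbs5 rose from 25.1, 32.7 and 43.8 CPM in CTRL Spc to 102, 103 and 107 CPM in CTRL RS (1.62 ± 0.19), and Cfap58 from 104, 120 and 165 to 363, 366 and 391 CPM (1.52 ± 0.17). Cfap126 (1.37 ± 0.14), Bbs12 (1.18 ± 0.22), Rsph14 (1.06 ± 0.13) and Cfap45 (0.93 ± 0.11) followed.

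The largest falls between CTRL Spc and CTRL RS were in IFT-B genes. Ift80 went from 154, 172 and 182 CPM to 47.2, 51.7 and 54.1 (-1.73 ± 0.09), and Ift20 from 35.8, 38.2 and 40.4 CPM to 12.3, 13.4 and 13.8 (-1.53 ± 0.10). Bbs1 (-1.27 ± 0.09), Cfap46 (-1.16 ± 0.08), Bbs9 (-1.03 ± 0.08) and Rsph1 (-0.96 ± 0.07) also fell. By family, 9 of 17 Cfap genes rose and 3 fell, while 2 of 8 Bbs genes rose and 5 fell, where 35.6% of all genes rose and 40.4% fell. Under scaling by total counts Cfap36 and Cfap43 turned and Cfap53 no longer passed.

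In cKO the same step gave 9 genes higher and 19 lower, where 19.1% and 26.2% of all 17709 genes tested were called, with medians of -0.09 and 0.02. Scaling by total counts gave 19 higher and 13 lower, no count minimum or transcript counts summed per gene 16 and 16 each, and leaving out cKO Spc 1 gave 10 and 12. Ift20 (-1.80 ± 0.13) and Ift80 (-1.45 ± 0.08) again fell most, and Ift20 alone passed the size of 1.5, which 3.28% of all genes passed upwards and 3.73% downwards. Rsph14 had 6.71, 7.96 and 9.18 CPM in cKO Spc and 6.52, 7.56 and 8.20 CPM in cKO RS, so that the libraries of the 2 stages overlapped (-0.10 ± 0.19). Bbs4 was lower in RS than in Spc in CTRL (-0.34 ± 0.12) and higher in cKO (0.59 ± 0.08). Ift172 was higher in CTRL (0.26 ± 0.07, turned under scaling by total counts) and lower in cKO (-0.18 ± 0.06). Under that scaling its value in cKO was -0.03 and no longer passed. Dnaic2, with 108, 110 and 135 CPM in cKO Spc and 168, 197 and 249 CPM in cKO RS, rose by 0.80 ± 0.15.

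**Figure D3:**
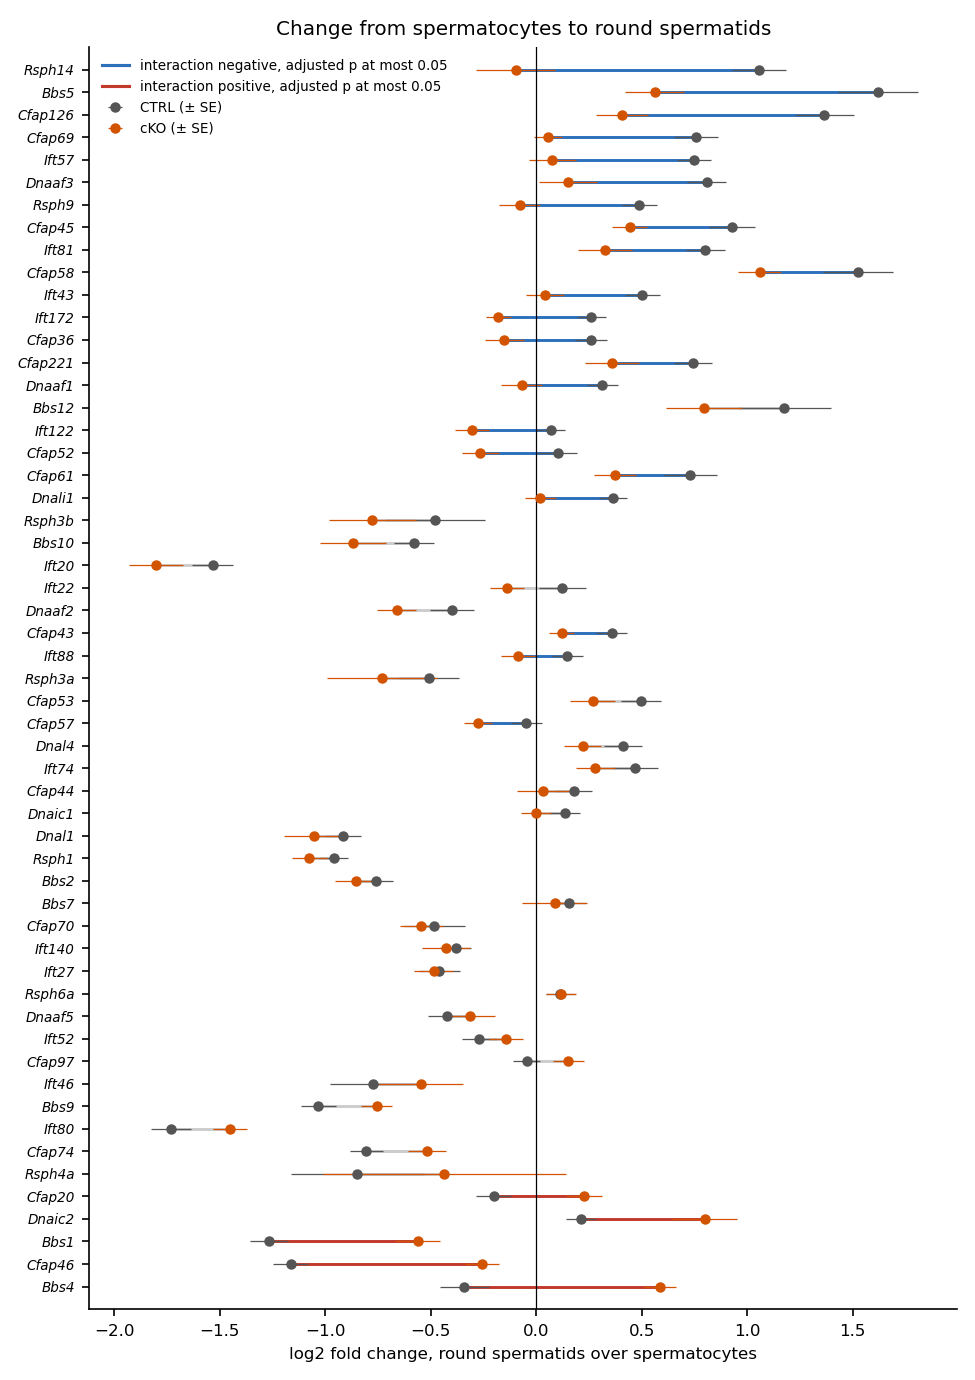
Log2 fold change of RS over Spc for the 55 genes in CTRL and in cKO, sorted by the difference between the genotypes, with standard errors as bars. Rsph14, Bbs5 and Cfap126 stand at one end, with a larger rise in CTRL than in cKO, and Bbs4 and Cfap46 at the other.

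Whether the effect of the genotype differed between the cell types was tested with an interaction term (the cKO effect in RS minus that in Spc). It was positive at an adjusted p of at most 0.05 for 5 of the 55 genes and negative for 22, against 20.5% and 21.2% of all 18171 genes tested. The median was -0.31 over the 55 genes and -0.07 over all genes, and 42 lay below the median of all genes. No term reached 1.5 in size, where 8.57% and 2.33% of all genes did. The most negative terms were those of Rsph14 (-1.23 ± 0.21, adjusted p = 0.0014), Bbs5 (-1.14 ± 0.25) and Cfap126 (-1.04 ± 0.20), followed by Cfap69 (-0.78 ± 0.12), Ift57 (-0.75 ± 0.13) and Dnaaf3 (-0.74 ± 0.17). The 5 positive terms were those of Bbs4 (0.85 ± 0.14), Cfap46 (0.83 ± 0.11), Bbs1 (0.63 ± 0.13), Dnaic2 (0.51 ± 0.18) and Cfap20 (0.35 ± 0.12). Under scaling by total counts alone 27 terms were positive and 1 negative, the median of all genes being 0.57, and 42 genes again lay below that median. The sign turned for 15 of the 22 negative terms, and stayed negative for Rsph14, Bbs5, Cfap126, Cfap69, Ift57, Dnaaf3 and Rsph9. Of these only Rsph14 still passed, and the other 6 lay between -0.50 (Bbs5) and -0.006 (Rsph9). Leaving out number 3 of each group gave 2 positive and 7 negative, and number 2 gave 3 and 8.

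Transcripts with 20 counts in at least 3 libraries came from 54 of the genes in Spc and in RS and from 53 in CBs. In RS, 72 of their 276 tested transcripts were higher and 101 lower in cKO (38.9% and 36% of all 57133 transcripts), in Spc 75 and 27 of 276 (16.1% and 12.5%), and in CBs 25 and 41 of 247 (17.8% and 18.1%). Scaling by total counts turned the balance in RS to 188 higher and 43 lower. Leaving out 1 library lowered the number in Spc to 42 higher (without CTRL Spc 3) and 4 lower (without cKO Spc 3), and that in CBs to 13 higher (without CTRL CB a) and 14 lower (without cKO CB c). Transcripts of 1 gene share reads and are not independent. The 16 transcripts annotated as NMD targets came from 11 of the genes. In RS 4 of them were higher and 9 lower, with a median of -0.46 against 0.18 over all annotated NMD transcripts tested, of which 43.7% were higher and 31.3% lower. Of 15 coding transcripts with a 3′UTR over 1500 nt 7 were higher and 2 lower in RS (46.7% and 13.3%, where 48.6% and 29.2% of all such transcripts were), with a median of 0.15 against 0.33. Of 54 with a 3′UTR under 350 nt 11 were higher and 22 lower (20.4% and 40.7%, where 30.9% and 46.5% of all such transcripts were), with a median of -0.11 against -0.23. In CBs, of the 15 with the longer 3′UTRs 1 was higher and 5 lower (6.67% and 33.3%, where 18.1% and 15.5% of all such transcripts were, medians -0.21 and 0.08), of 49 with the shorter 4 and 8 (8.16% and 16.3%, where 16.5% and 26.3% were), and of the 16 NMD transcripts 2 and 6 (12.5% and 37.5%, where 17.3% and 16.2% were). In Spc these counts were 4 and 1 of 15 (13% and 17.5% over all), 14 and 9 of 54 (16.1% and 14.6%) and 4 and 2 of 16 (21.8% and 8.14%).

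The transcripts of Cfap46 and Rsph14, the genes with the largest changes in RS, are given singly. In RS all 9 tested transcripts of Cfap46 were higher in cKO, by 1.56 to 2.01. In CBs the NMD-annotated ENSMUST00000155075 (chr7:139638778-139661107) had 31.7 to 59.6 CPM in CTRL libraries and 116, 133 and 937 CPM in cKO libraries (3.30 ± 0.65, adjusted p = 0.0037). A second NMD-annotated form, ENSMUST00000140820 (chr7:139638778-139683817), differed by 2.79 ± 0.57 and the full-length coding form ENSMUST00000129990 by 1.97 ± 0.44, while the other 6 ranged from 0.22 to 0.58. The library cKO CB b held the highest value in all 3 of these forms, which overlap in position and share reads. They had 937, 961 and 1092 CPM in that library, against CTRL medians of 34.7, 55.8 and 141. Without this library the differences were 1.64, 1.32 and 0.98. The processed pseudogene Gm4459 (chr7:139659688-139660155) lies on the same strand within the gene, and its own level was 0.100 to 2.2 CPM in CTRL and 1.11 to 1.55 CPM in cKO CBs. Rsph14 transcripts that code for protein had log2 fold changes of -1.25 to -2.44 in cKO RS, a wider range than that of Cfap46 there, and in CBs ENSMUST00000159994, the 1 form past the count minimum, did not pass (-0.48 ± 0.37). The other coding forms were below that minimum in CBs, such as ENSMUST00000009214 with 0.928 to 1.63 CPM in CTRL and 0.222 to 0.421 CPM in cKO, the latter from 1 or 2 counts a library.

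**Figure D4:**
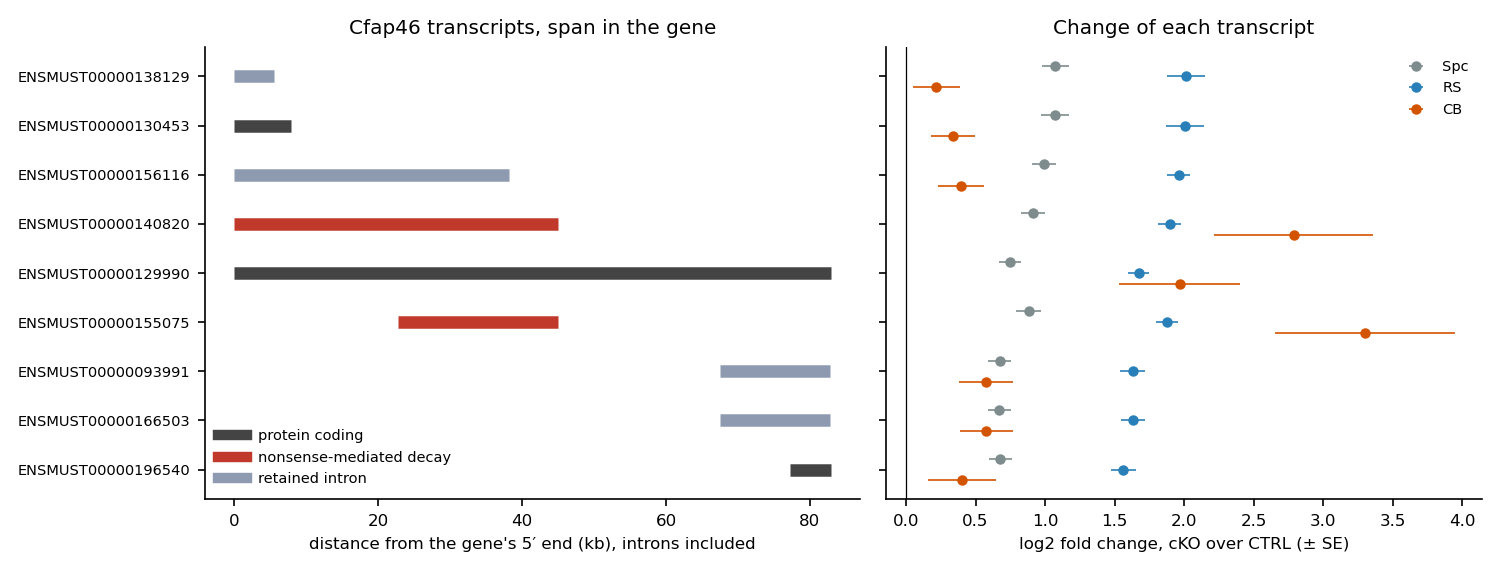
Left, the span of each tested Cfap46 transcript in kilobases from the 5′ end of the gene. Right, its log2 fold change (cKO over CTRL, with standard error) in Spc, RS and CBs. In RS the 9 transcripts lie between 1.56 and 2.01. In CBs the NMD-annotated forms reach 3.30 and 2.79 and the overlapping full-length coding form 1.97. Each of these is highest in cKO CB b. The 6 others stay between 0.22 and 0.58.

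Other genes of the axoneme and of IFT, outside the 55, were read from 10 lists of 91 genes by structure. In RS 17 of 83 tested were higher and 52 lower in cKO (20.5% and 62.7%), with a median of -0.34, but the balance depends on the scaling, since 41 were higher and 23 lower when total counts alone were used. The widest shift was in proteins of the microtubule lumen, of which 12 of 12 tested were lower (median -0.85). Tekt5, a tektin of the sperm tail, fell from 175 ± 12.7 to 45.5 ± 5.82 CPM (SD, n = 3, log2 fold change -1.94 ± 0.11), and Tekt2 from 729 ± 33.6 to 292 ± 35.6 CPM (-1.32 ± 0.09). Under scaling by total counts 8 of these 12 were lower and 1 higher. In CTRL, 11 of the 12 were higher in RS than in Spc, as were 35.6% of all genes. That scaling moved the median of all genes in this step from -0.10 to -0.52.

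Regulators of ciliary genes were lower in RS in 6 of 7 cases tested (median -0.81, and 4 lower and 1 higher under scaling by total counts). They included the X-box factors Rfx1 (-1.15 ± 0.10), Rfx2 (-0.58 ± 0.06) and Rfx3 (-1.27 ± 0.12), and Foxj1 (-0.36 ± 0.10), a forkhead factor that directs motile cilium genes. These values were not taken under scaling by total counts, which moved the median of all genes in RS from 0.16 to 0.72. None of the 6 regulators tested passed in Spc. Of the central apparatus list 2 of 11 were higher and 7 lower in RS, of the nexin-dynein list 2 and 6 of 8, of the arm docking list 4 and 6 of 12, of the further assembly factors 4 and 3 of 12, and of dynein-2 2 and 3 of 5. Under scaling by total counts these became 7 higher and 3 lower for the central apparatus, 5 and 1 for nexin-dynein, 5 and 5 for arm docking, 9 and 1 for the further assembly factors and 3 and none for dynein-2. Of the further IFT-B genes 1 of 8 was higher and 5 lower, and of the further IFT-A genes none was higher and 1 of 3 lower, and under that scaling 3 of 8 were higher and 1 lower, and 3 of 3 higher.

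Among single genes of these lists, Dyx1c1, an arm assembly factor, was higher in cKO RS (12.6 ± 0.792 to 47.9 ± 2.76 CPM, 1.92 ± 0.10). Ttc8 (0.89 ± 0.18), a BBSome subunit, and Mkks (1.18 ± 0.18), a chaperonin-like protein of BBSome assembly, were higher in RS like the 5 Bbs genes above, and 3 of the 5 further Bbs genes were lower (none under scaling by total counts, where 4 were higher). Cluap1, an IFT-B subunit, was lower (-1.37 ± 0.12). In CBs 3 of 81 tested genes of the 10 lists were higher and 29 lower, where 16.8% and 19.2% of all genes were (3.70% and 35.8% of the listed genes). In Spc 11 and 16 of 82 were (13.4% and 19.5%), close to the 14.1% and 14% of all genes.

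**Figure D5:**
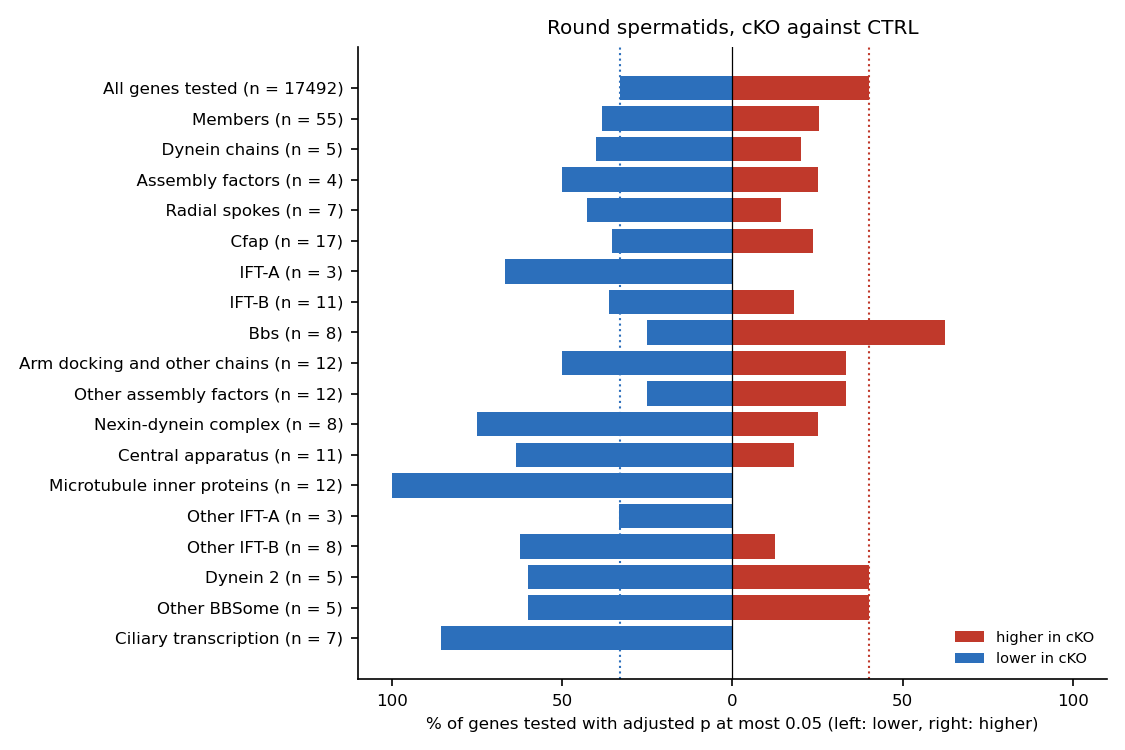
Percent of tested genes that were higher or lower in cKO RS, for each family of the 55 genes and for each list of other axoneme and IFT genes, on an axis from 0. Dotted lines give the percentages over all genes (40.2% higher, 32.9% lower), of which the Bbs genes exceed the first. Most families and lists exceed the second, up to 12 of 12 for the lumen proteins.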

How the data were processed

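RNA of Spc, RS and CBs was measured in 19 libraries, grouped by their labels. After trimming with cutadapt and STAR alignment to GRCm38, the authors ran TEtranscripts on the reverse strand to count genes and transposable elements, and the deposited gene tables hold whole-number counts. The deposited transcript tables hold expected counts made by the authors with featureCounts, in which reads shared by isoforms are divided; these were rounded to whole numbers. CB RNA was total RNA without rRNA removal, and Spc and RS RNA was poly(A)-selected.

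Genes with 10 counts, and transcripts with 20, in at least 3 libraries of a comparison were kept. Counts were scaled by TMM over genes and elements and tested with edgeR 4.0.16 (quasi-likelihood, two-sided, Benjamini-Hochberg over all genes or transcripts) in R 4.3.3. CPM are on the scaling of their own comparison, so Spc and RS values of the genotype comparisons are not on 1 scale. A call is an adjusted p of at most 0.05. Alternatives were DESeq2 1.42.0, total counts as scaling, no count minimum, a block by library number, transcript counts summed per gene, and each library left out. The tests were checked on simulated counts. Libraries of a group differed by more than sampling noise (chi-square per degree of freedom 9.89 to 82.3). p-values measure the spread between libraries. Spc and RS libraries were stated to be biological replicates, and CB libraries pools of mice. Statements on how many testes went into an Spc or RS library differ, so these may be pools as well. The numbers in the CB column names are not those of the labels, so each CB library was assigned to its group only and is called here by a letter.

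Exons, transcript classes and 3′UTRs came from GENCODE vM21. Genes named with values are, per comparison, up to 6 highest and 6 lowest called genes whose groups do not overlap, plus a set with well-known roles. Further genes were chosen after their values were seen. The genes, lists and markers were chosen with earlier results of these data known. Of the 55 genes, 9 share a strand and position with another gene. Small RNA was not used here.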

Additional observations from a re-analysis of the deposited data

Results flagged for a closer look

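In the 4 CTRL CB libraries, 5 of the 55 genes had 1 library far from the others, with a gap above Dixon's critical value. About 1 in 20 groups pass it by chance. The highest library of Bbs1 was at 58.9 CPM and that of Dnaic1 at 69.4 CPM, and the lowest of Cfap43 was at 247 CPM, of Dnaaf1 at 201 CPM and of Dnaaf2 at 32.2 CPM.

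The effect of cKO differed between RS and Spc in 27 of the 55 genes by the interaction term of the edgeR quasi-likelihood test, at an adjusted p of at most 0.05. On the log2 scale the term was negative in 22 genes, of which 15 turned positive when libraries were scaled by total counts alone. A further 6 (Bbs5, Cfap126, Cfap69, Dnaaf3, Ift57 and Rsph9) no longer passed, with values of -0.50 to -0.006. Under TMM scaling the term was -1.23 for Rsph14, -1.14 for Bbs5 and -1.04 for Cfap126. It lay between -0.78 and -0.54 for Cfap69 (-0.78), Ift57 (-0.75), Dnaaf3 (-0.74), Rsph9 (-0.65), Cfap45 (-0.56), Ift81 (-0.56), Cfap58 (-0.54) and Ift43 (-0.54). It was smaller in size for Ift172 (-0.52), Cfap36 (-0.49), Cfap221 (-0.46), Dnaaf1 (-0.46), Ift122 (-0.45), Cfap52 (-0.44), Cfap61 (-0.44), Dnali1 (-0.43), Cfap43 (-0.31), Ift88 (-0.31) and Cfap57 (-0.31). It was positive for Bbs4 (0.85), Cfap46 (0.83), Bbs1 (0.63), Dnaic2 (0.51) and Cfap20 (0.35). Late spermatid, spermatid, spermatocyte, Leydig, Sertoli and macrophage markers differed between the genotypes in RS as well, and their part in these terms was not tested.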

How the results depend on the processing

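Scaling by total counts alone moved the most values. It gave 35 genes higher and 8 lower in cKO RS, 2 higher in CBs, 12 higher and 34 lower from Spc to RS in CTRL, 19 higher in that step in cKO, 27 positive and 1 negative interaction terms, 188 transcripts higher and 43 lower in RS, and 5 transcripts higher in CBs. The direction turned under it for 38 of the values that the naming rule takes in each comparison, some of which passed the threshold only under it, on the log2 scale in RS for Cfap61 (0.39), Dnaaf1 (0.13), Dnaaf2 (0.37), Dnal4 (0.27), Dnali1 (0.49), Ift172 (0.018), Ift20 (0.51), Ift74 (0.55), Ift88 (0.48) and Rsph1 (0.46), from Spc to RS in CTRL for Bbs7 (-0.27), Cfap43 (-0.060), Cfap44 (-0.24), Dnaaf1 (-0.11), Dnaic1 (-0.28), Dnaic2 (-0.21), Dnal4 (-0.0084), Dnali1 (-0.054), Ift172 (-0.16), Ift88 (-0.27) and Rsph6a (-0.31), and in the interaction for Bbs2 (0.47), Bbs7 (0.50), Cfap43 (0.33), Cfap44 (0.41), Cfap61 (0.20), Dnaaf1 (0.18), Dnaic1 (0.43), Dnal4 (0.37), Dnali1 (0.22), Ift140 (0.52), Ift172 (0.13), Ift27 (0.54), Ift74 (0.37), Ift81 (0.088), Ift88 (0.33), Rsph1 (0.45) and Rsph6a (0.57). Other called values that turned were those of Bbs12, Ift122 and Ift22 in RS, Cfap36 in the step in CTRL, and Cfap221, Cfap36, Cfap45, Cfap52, Cfap57, Cfap58, Ift122 and Ift43 in the interaction. The median of all genes moved with this scaling, to 0.72 in RS, -0.52 in the step in CTRL and 0.57 in the interaction. Without a count minimum 16 genes were higher from Spc to RS in cKO and 9 transcripts higher in CBs, and with transcript counts summed per gene 16 genes were higher in that step. The cause was not tested.

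Leaving out 1 library gave, in Spc, 7 to 12 genes higher and 2 to 7 lower, in RS 13 to 17 and 18 to 21, in CBs 3 to 7 and 7 to 10, from Spc to RS 20 to 23 and 16 to 22 in CTRL and 7 to 12 and 12 to 17 in cKO, and, leaving out 1 number of each group, 2 to 4 positive and 7 to 18 negative interaction terms. Transcripts numbered 42 to 74 higher and 4 to 20 lower in Spc, 61 to 104 and 82 to 101 in RS, and 13 to 20 and 14 to 38 in CBs. Each group kept at least 2 libraries. Counts moved by over 1.5 times in Spc without CTRL 3 (7 higher, 3 lower), cKO 1 (9 and 3), cKO 3 (8 and 2), cKO 2 (9 higher) and CTRL 1 or CTRL 2 (5 lower each), in CBs without cKO b (7 lower) or CTRL b (3 higher), and in cKO from Spc to RS without cKO Spc 1 (12 lower).

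DESeq2 gave 13 higher and 23 lower in RS, 13 and 8 in Spc and 5 and 12 in CBs, and turned none of 208 values under that rule. Library numbers were not taken to pair the samples, since not every same-numbered pair of any comparison deviated together. Correlations of same-numbered deviations between genotypes were 0.18, -0.20 and 0.34 in Spc and -0.12, -0.17 and 0.10 in RS, and between Spc and RS -0.15, -0.10 and -0.28 in CTRL and -0.06, 0.60 and 0.34 in cKO. With a replicate block 10 genes were higher and 8 lower in Spc, 13 and 19 in RS, 22 and 17 from Spc to RS in CTRL, 10 and 21 in cKO, and 4 positive and 19 negative interaction terms. No paired analysis was possible in CBs because the numbers of their columns are not those of the labels. The CB libraries were the shallowest, and Rsph4a was not tested there.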
